A study of Homo sapiens with 12 samples.

Results

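The death receptors and the proteins that sit directly on them were followed here in H460 and A549, a pair of human non-small cell lung cancer (NSCLC) lines, before and after ISP-I. The 10 genes, of 19973 in the table, were taken by name, in a choice made with earlier results of these data known. They were the receptors FAS, TNFRSF1A, TNFRSF10A and TNFRSF10B and the decoy receptors TNFRSF10C and TNFRSF10D. The others were the ligand TNFSF10, the adaptors FADD and TRADD, and the inhibitor CFLAR. ISP-I is isovalerylspiramycin I, a component of the macrolide antibiotic carrimycin. The 4 groups of 3 libraries each were H460 control (non-treated), H460 given ISP-I at 10 µM for 48 h, A549 control (non-treated) and A549 given ISP-I at 10 µM for 48 h. The labels give both lines as wild type, while the study states that both carry homozygous mutations that inactivate KEAP1. The labels name no vehicle for the controls. They do not say whether the libraries of a group came from separate cultures, so p-values measure only the spread between these libraries. Each line is a single established line grown in culture, at a single dose and time.

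Death receptors are membrane proteins of the tumour necrosis factor (TNF) receptor family that carry a death domain in the cell. FAS binds FAS ligand, TNFRSF1A (TNF receptor 1) binds TNF, and TNFRSF10A (DR4) and TNFRSF10B (DR5) bind TRAIL, the product of TNFSF10. TNFRSF10C and TNFRSF10D bind TRAIL as well but pass on no death signal, the first because it has no death domain and the other because its death domain is truncated. FAS and the TRAIL receptors recruit FADD, which brings in the initiator caspase-8, while TNFRSF1A first recruits TRADD, from which either survival signalling or, through FADD, cell death can follow. CFLAR encodes c-FLIP, a relative of caspase-8 that competes for FADD. ISP-I has been studied as an inducer of apoptosis in these lines, and the comparisons below ask what happened to the mRNA of this first layer of the extrinsic pathway.

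The 250 bases upstream of the transcription start are shown for the receptor with the deepest fall (TNFRSF1A) and for a receptor and an adaptor that were among the genes higher in A549 after ISP-I (FAS and FADD). They were taken from RefSeq (GRCh38.p14), run 5′ to 3′ on the gene's strand and end at the base before the start of the MANE Select transcript. Capitals mark matches, on either strand, to 7 short motifs searched as exact letters, where N stands for any base. They were the TATA box (TATAAA), GC box (GGGCGG), AP-1 (TGANTCA), FOXO (GTAAACA), CRE (TGACGTCA), the CHOP composite element (TGATGCAA) and the E-box (CACGTG).
TNFRSF1A, chr12:6342077-6342326, minus strand: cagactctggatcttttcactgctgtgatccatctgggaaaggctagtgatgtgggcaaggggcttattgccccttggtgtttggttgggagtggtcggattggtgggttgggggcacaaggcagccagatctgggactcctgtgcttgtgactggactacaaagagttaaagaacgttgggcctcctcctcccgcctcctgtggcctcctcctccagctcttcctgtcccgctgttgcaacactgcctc
FAS, chr10:88990548-88990797, plus strand: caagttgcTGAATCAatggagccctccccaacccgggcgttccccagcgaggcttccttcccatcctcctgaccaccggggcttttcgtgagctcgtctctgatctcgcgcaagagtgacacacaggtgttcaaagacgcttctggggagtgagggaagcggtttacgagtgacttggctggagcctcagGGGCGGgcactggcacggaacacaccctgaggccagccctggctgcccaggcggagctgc
FADD, chr11:70203046-70203295, plus strand: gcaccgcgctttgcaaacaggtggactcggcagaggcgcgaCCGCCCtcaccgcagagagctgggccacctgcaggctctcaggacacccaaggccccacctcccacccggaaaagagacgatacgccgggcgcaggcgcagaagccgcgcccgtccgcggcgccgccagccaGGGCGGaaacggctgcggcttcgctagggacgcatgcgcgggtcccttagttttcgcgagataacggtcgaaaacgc
The TNFRSF1A sequence held none of the 7 motifs, which says only that these letters are not in this window. The FAS sequence held a match to the AP-1 letters at position -242 (TGAATCA, with A at the open base N) and a GC box at position -60 from the start. The FADD sequence held GC boxes at positions -209 and -77. Of 35116 promoter sequences of the same length, 6.57% held the AP-1 letters and 42.6% a GC box, against 10.7% for the TATA box, 6.34% for the E-box, 2.98% for FOXO, 1.65% for CRE and 0.772% for the CHOP composite element. GC content was 56.8% in TNFRSF1A, 62.8% in FAS and 68.8% in FADD, with a median of 58% over all promoters. The table held promoters of 5 of the 10 genes, and for 4 of them that of the MANE Select start.

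Levels are the authors' deposited FPKM, the reads of a gene scaled by the bases it spans and by the depth of the library, so that levels of different genes can be set side by side per length. Libraries held 14225849 to 17874422 reads on genes, recovered from FPKM. Within groups, the squared differences between any pair of libraries were 2.95 to 92.0 times those that read sampling alone would give (chi-square per degree of freedom). They were largest for ISP-I libraries 2 and 3 of H460. Their deviations from the group mean also followed the GC content of the transcripts in opposite directions (Spearman rho across 13254 genes -0.52 in library 2 and 0.45 in library 3). Such trends were as wide in controls 1 to 3, with rho of -0.62, 0.50 and 0.11 in H460 and of -0.52, -0.47 and 0.61 in A549 (13536 genes). In the A549 ISP-I libraries rho lay between -0.091 and 0.078. Of the epithelial markers EPCAM, KRT8, KRT18, KRT19 and KRT7, 5 of 5 had a mean of at least 1 FPKM in A549 and 4 of 5 in H460, where EPCAM was near 0 (0.0473 ± 0.0597 in controls). KRT7 reached that mean in H460 controls only through library 3 (0.521, 0.675 and 2.30 FPKM), against 557.3 ± 39.7 in A549 controls. The 4 leukocyte and 3 endothelial markers summed to at most 0.0961 and 0.368 FPKM in any library. Of 4 fibroblast markers, 2 reached 1 FPKM in H460, with a summed level of 9.63 to 11.1 in controls and 4.91 to 5.79 after ISP-I. They did not move together. COL3A1 went from 8.60 ± 0.497 to 2.25 ± 0.194 and COL1A1 from 1.19 ± 0.168 to 0.764 ± 0.126, while PDGFRB went up from 0.543 ± 0.109 to 2.40 ± 0.150. DCN stood at 0.0123 ± 0.00621 in controls and 0.00432 ± 0.00749 after ISP-I. In A549 the fibroblast markers summed to 0.874 to 1.30 FPKM. Their part in the H460 results was not tested.

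Before treatment the receptors of TNF and TRAIL dominated in both lines, and TRAIL itself was barely transcribed. In H460 controls TNFRSF1A was the most abundant of the 10 mRNAs, at 79.6 ± 3.25 FPKM (mean ± SD, n = 3). TNFRSF10B followed at 33.6 ± 1.70 FPKM, then TRADD at 19.5 ± 3.25, TNFRSF10A at 14.7 ± 0.377 and FADD at 13.0 ± 2.59. At the low end of the order stood TNFRSF10D at 3.40 ± 0.273, CFLAR at 1.57 ± 0.106, FAS at 0.585 ± 0.0675, TNFSF10 at 0.0770 ± 0.0766 and TNFRSF10C at 0.0142 ± 0.0246 FPKM. Only the neighbours TNFRSF10A and FADD, and TNFSF10 and TNFRSF10C, overlapped in this order. In A549 controls TNFRSF1A (111.0 ± 10.2 FPKM) and TNFRSF10B (57.2 ± 1.81) again led, followed by FADD (22.8 ± 0.642). TNFRSF10A (13.2 ± 0.968), TNFRSF10D (12.7 ± 1.09) and TRADD (11.2 ± 2.30) overlapped with each other there. CFLAR (4.78 ± 0.372), FAS (1.82 ± 0.127), TNFRSF10C (0.372 ± 0.164) and TNFSF10 (0.105 ± 0.0911) closed the order without overlap. The listed CFLAR length of 22479 bases exceeds the 14612 bases of its MANE Select transcript, so its FPKM is lower than a transcript-based value would be. Other listed lengths exceed as well, among them that of TNFRSF1A (4005 against 2171 bases), while those of FADD (1708) and TNFRSF10D (3535) are equal. The order of levels therefore depends on the lengths used.

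**Figure D1:**
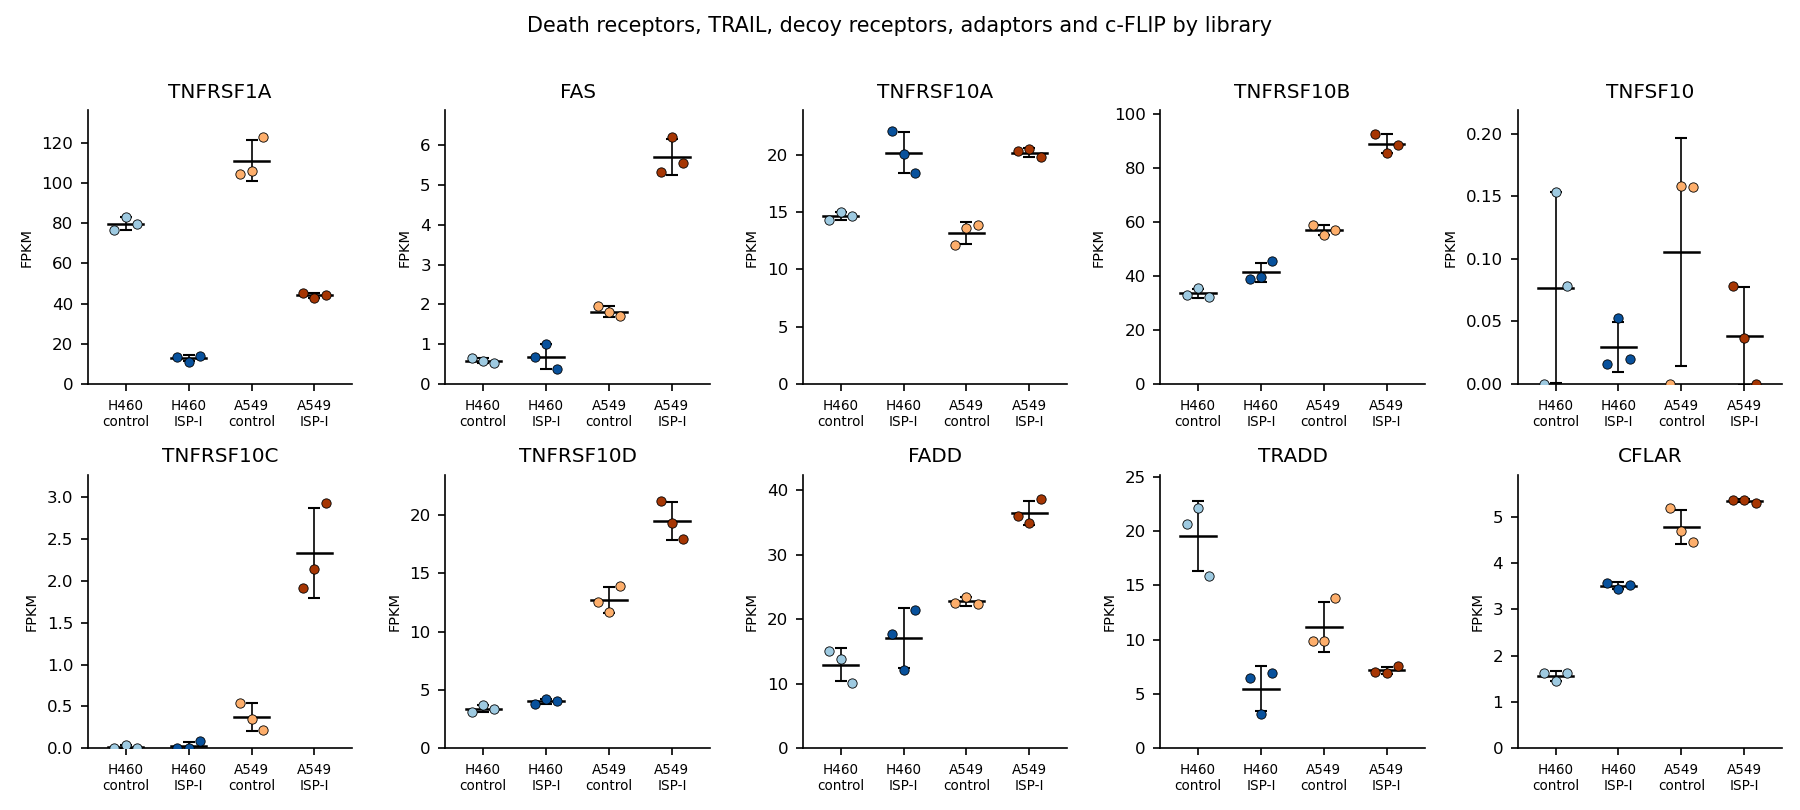
FPKM of each gene (y axis, from 0, a scale of its own in each panel) in the 12 libraries by group (x axis). Points are libraries, horizontal lines means and bars SD of 3 libraries. TNFRSF1A and TRADD are lower after ISP-I in both lines, FAS and TNFRSF10C are higher in A549, CFLAR is higher in H460, and TNFSF10 lies under 0.2 FPKM throughout.

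The lines differed before treatment. Of 9 genes tested, 7 were lower and 1 (TRADD) was higher in untreated H460 than in untreated A549 (limma on log2(FPKM + 1), Benjamini-Hochberg adjusted p under 0.05), where 57.5% of all genes tested passed in either direction. Of all 13953 genes tested, 4246 were lower and 3779 higher in untreated H460. On the log2(FPKM + 1) scale the widest gaps were those of TNFRSF10D, 3.74-fold higher in A549 (log2 difference H460 minus A549 -1.64, adjusted p 1.01e-08), and CFLAR, 3.04-fold higher (-1.17, 4.03e-08). FAS was 3.11-fold higher in A549 (-0.83, 6.01e-05), TNFRSF10B 1.70-fold (-0.75, 8.78e-06), FADD 1.76-fold (-0.79, 0.00209) and TNFRSF1A 1.39-fold (-0.47, 0.0012). TRADD was 1.74-fold higher in H460 (0.75, adjusted p 0.0108). TNFRSF10A did not pass (0.14, 95% confidence interval -0.04 to 0.32, adjusted p 0.165). TNFRSF10C had 1 read in the 3 H460 controls against 25 in A549, so that its fitted difference of -0.43 (adjusted p 0.00437) depends on the pseudocount. It is 1 of the 7 lower genes, but averaged 0.1 FPKM or more over the 12 libraries only through A549. Only a lower level in H460 could therefore be called for it.

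TNFRSF1A and TRADD mRNA fell after ISP-I in both lines, and TNFRSF10A rose in both. The other TRAIL receptors and FAS rose in A549, and CFLAR rose in H460. Whether TNFRSF10B, TNFRSF10D and FADD passed in H460 depended on the processing. In H460, 8 of the 10 genes were tested, since TNFSF10 and TNFRSF10C averaged under the 0.1 FPKM set for testing. Of these, 2 rose (TNFRSF10A and CFLAR), against 27.6% of all genes tested, 2 fell (TNFRSF1A and TRADD), against 41.5%, and 4 did not pass. The 2 falls were over 2-fold, against 25.7% of all genes at that rule, and 6 of the 8 had groups that did not overlap, against 72.7%. In A549, 9 were tested, all but TNFSF10. There 6 rose (FAS, TNFRSF10A, TNFRSF10B, TNFRSF10C, TNFRSF10D and FADD), against 30.5% of all genes, 2 fell (TNFRSF1A and TRADD), against 27.0%, and CFLAR did not pass. Changes over 2-fold were the rises of FAS and TNFRSF10C and the fall of TNFRSF1A, against 7.71% of all genes, and 9 of 9 had groups that did not overlap, against 65.5%. The median log2 change of the genes tested was 0.24 in H460 and 0.58 in A549, beside -0.15 and 0.02 over all genes. In a bulk culture, fewer cells with a transcript and less transcript per cell cannot be told apart.

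The median over all genes in H460 depended on the scaling between libraries. Median-of-ratios scaling moved it from -0.15 to 0.01 and the share of higher genes among those that passed from 40.0% to 51.8%, against 53.1% and 50.4% in A549. The H460 changes of the 10 genes are therefore followed by their values after that scaling. With it, 5 of the 8 genes rose in H460 (TNFRSF10A, TNFRSF10B, TNFRSF10D, FADD and CFLAR), 2 fell and FAS did not pass, and the A549 calls were the same.

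**Figure D2:**
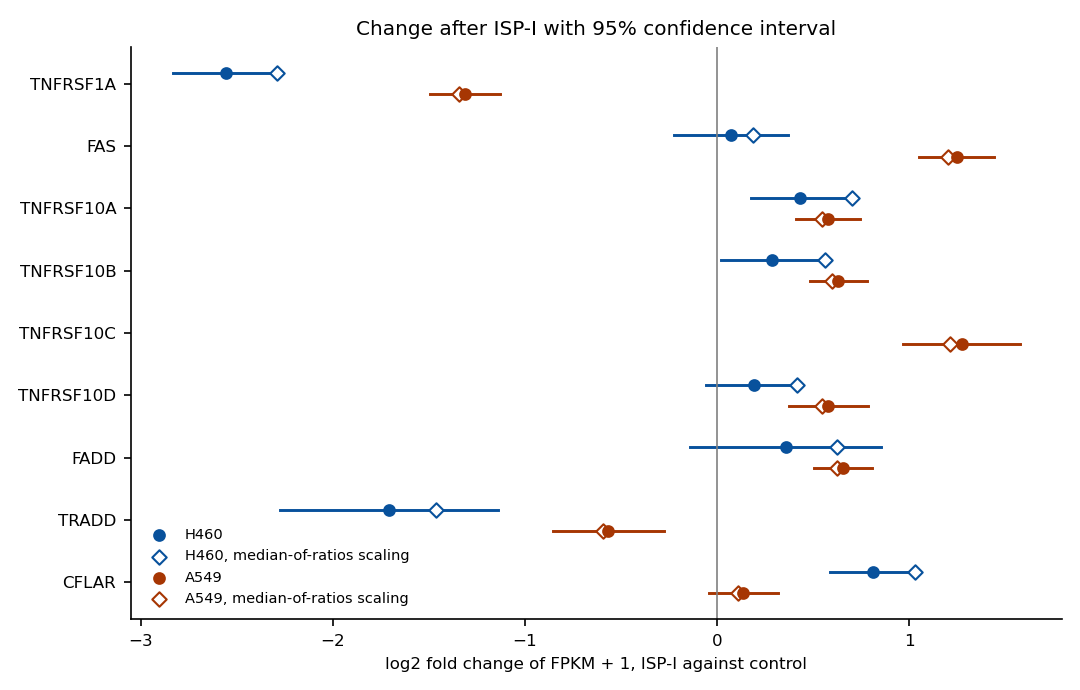
Log2 fold change of FPKM + 1 after ISP-I (x axis) for the genes tested (y axis), H460 in blue and A549 in brown. Filled points are fitted changes with 95% confidence intervals (lines), and open diamonds the changes after median-of-ratios scaling. The H460 diamonds lie to the right of the points, by 0.27 for TNFRSF10A (0.43 to 0.70), while those of A549 stay close to them.

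TNFRSF1A, the receptor through which TNF signals survival or death, had the largest change of the 10 genes in H460. It lies on chromosome 12 (6328757 to 6342114, minus strand, hg38). Its H460 controls read 76.4, 82.9 and 79.7 FPKM and its ISP-I libraries 13.5, 11.1 and 13.8, behind which stood 742 to 5041 reads per library. The groups were far apart, the highest ISP-I library lying well under the lowest control. The level was 6.23-fold lower (log2 fold change -2.55, SE 0.12, adjusted p 8.96e-07; -2.29 after median-of-ratios scaling). In A549 the controls read 104.4, 105.7 and 122.8 FPKM and the ISP-I libraries 45.0, 42.7 and 44.3. The fall was 2.52-fold there (-1.31, SE 0.08, adjusted p 5.94e-06). The change was deeper in H460 by 1.24 on the log2 scale (interaction of line and treatment -1.24, adjusted p 1.37e-05), and 53.3% of all genes passed that test. After median-of-ratios scaling the interaction was -0.94 (adjusted p 0.000288).

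FAS, the receptor of FAS ligand, rose in A549 and did not pass in H460. It lies on chromosome 10 (88990531 to 89017059, plus strand). In A549 the controls read 1.95, 1.81 and 1.70 FPKM and the ISP-I libraries 5.33, 6.19 and 5.56, and the groups were well separated. The level was 3.13-fold higher (log2 fold change 1.25, SE 0.08, adjusted p 1.02e-05). In H460 the controls read 0.660, 0.567 and 0.529 FPKM, from 44 to 53 reads, and the ISP-I libraries 0.672, 1.01 and 0.375, from 31 to 94 reads. The ISP-I libraries surrounded the controls, library 2 above them and library 3 below. The change was 0.07 (95% confidence interval -0.23 to 0.37, adjusted p 0.638; 0.19 after median-of-ratios scaling), and it was -0.06 without ISP-I library 2. FAS has the lowest transcript GC content of the 10 genes (38%), and with each library's GC trend removed, an alternative chosen after the data were seen, its change in H460 was -0.04. The interaction was -1.17 (adjusted p 9.44e-05). After ISP-I the level in A549 was 8.30-fold that in H460 (log2 difference -2.00, adjusted p 1.23e-08).

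The 4 TRAIL receptor genes stand next to each other on chromosome 8, from TNFRSF10B (23020133 to 23069031) to TNFRSF10A (23190452 to 23225102). No 100-base window of their annotated transcripts is shared between them. TNFRSF10B, DR5, was the most abundant of them. In A549 it went from 58.9, 55.3 and 57.3 FPKM to 92.7, 85.7 and 88.7, with no overlap. That is a 1.56-fold rise (0.63, SE 0.06, adjusted p 8.55e-05). In H460 it read 33.0, 35.6 and 32.4 FPKM in controls and 38.9, 39.5 and 45.6 after ISP-I. The groups did not overlap here either, but the difference did not pass (0.29, SE 0.12, adjusted p 0.0542), and it did after median-of-ratios scaling (0.56, 0.00321). After ISP-I TNFRSF10B was the most abundant of the 10 mRNAs in both lines, at 41.4 ± 3.70 FPKM in H460 and 89.1 ± 3.52 in A549.

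TNFRSF10A, DR4, was the TRAIL receptor whose rise passed in both lines in the main fit (log2(FPKM + 1), filter at 0.1 FPKM). In H460 TNFRSF10B and TNFRSF10D passed as well with median-of-ratios scaling, quantile normalization or GC trends removed. In H460 it went from 14.3, 15.0 and 14.7 FPKM to 22.0, 20.1 and 18.4, a 1.38-fold rise (0.43, SE 0.11, adjusted p 0.00771; 0.70 after median-of-ratios scaling). In A549 it went from 12.1, 13.6 and 13.9 to 20.3, 20.5 and 19.8, a 1.53-fold rise (0.58, SE 0.07, adjusted p 0.000253). No library of a treated group reached down to its controls. The rises of the lines were not told apart (interaction -0.15, 95% confidence interval -0.40 to 0.11, adjusted p 0.317), and the interaction turned to 0.16 (adjusted p 0.337) after median-of-ratios scaling. After ISP-I the lines stood at nearly the same level, 20.2 ± 1.80 FPKM in H460 and 20.2 ± 0.369 in A549 (log2 difference -0.00, 95% confidence interval -0.19 to 0.18), but the difference was 0.35 (adjusted p 0.00498) after that scaling.

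Of the decoys, TNFRSF10D was present in both lines and TNFRSF10C almost only in A549. TNFRSF10D read 12.5, 11.7 and 13.9 FPKM in A549 controls and 21.2, 19.3 and 17.9 after ISP-I, a 1.53-fold rise (0.58, SE 0.09, adjusted p 0.000749). In H460 it read 3.15, 3.69 and 3.36 and then 3.78, 4.21 and 4.06, a difference that did not pass (0.19, SE 0.11, adjusted p 0.145) but did after median-of-ratios scaling (0.42, 0.0103). In A549 TNFRSF10C read 0.546, 0.352 and 0.219 FPKM in controls, from 5 to 12 reads a library, and 1.91, 2.15 and 2.93 after ISP-I, from 44 to 65 reads. The summed reads were 25 against 161, a ratio of 6.26 once scaled to depth (95% interval 4.09 to 9.96, counting error only), and the fitted rise was 1.27 (SE 0.13, adjusted p 8.98e-05). In H460 it had 1 read over the 3 controls and 2 over the 3 ISP-I libraries, under the limit of 3 reads, so no fold is given. The interaction was -0.34 for TNFRSF10B (adjusted p 0.0303) and -0.39 for TNFRSF10D (0.0238), and neither passed after median-of-ratios scaling (-0.03 and -0.13). That of TNFRSF10B also missed the threshold (adjusted p 0.0565 to 0.0783) when control library 2, ISP-I library 1 or ISP-I library 2 of H460, or control library 2, ISP-I library 1 or ISP-I library 3 of A549, was left out. That of TNFRSF10D did so (0.0539 to 0.0673) without control library 2 or ISP-I library 1 of either line. For TNFRSF10C it was -1.25 (adjusted p 2.87e-05), resting on the 3 H460 reads, and it did not pass in voom on the recovered reads with median-of-ratios factors (-2.22, 0.0798). TNFRSF10C was tested between the lines only through its level in A549. Exons of TNFRSF10A, TNFRSF10B and TNFRSF10C overlap other annotated genes over 377 to 510 bases, on the opposite strand for the first and second and on the same strand for TNFRSF10C, so a part of their reads could belong to those genes. For FAS and CFLAR such overlaps, on either strand, add up to 2452 and 2710 bases. Strand use in counting is not stated.

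TNFSF10, the gene of TRAIL, was close to the floor and was not tested. Its H460 controls held 0, 8 and 4 reads and its ISP-I libraries 1, 3 and 1. The A549 controls held 0, 8 and 8 reads and the ISP-I libraries 4, 2 and 0. The groups overlapped in both lines. The ratio of ISP-I to control reads, scaled to depth, was 0.375 in H460 (95% interval 0.104 to 1.14) and 0.364 in A549 (0.117 to 0.980), where the intervals cover counting error only and not the spread between libraries. No change of TNFSF10 was detectable beyond that spread at this depth.

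Of the adaptors, FADD rose in A549 and TRADD fell in both lines. FADD (chromosome 11, 70203296 to 70207390, plus strand), which links FAS and the TRAIL receptors to caspase-8, read 22.5, 23.5 and 22.3 FPKM in A549 controls and 36.0, 34.9 and 38.6 after ISP-I. The level was 1.60-fold higher (0.66, SE 0.07, adjusted p 7.81e-05). In H460 the controls read 15.1, 13.8 and 10.1 FPKM and the ISP-I libraries 17.7, 12.1 and 21.5, overlapping because ISP-I library 2 lay among the controls. The difference was 0.36 (SE 0.22, adjusted p 0.171), 0.62 (0.0316) after median-of-ratios scaling and 0.57 (0.0208) without ISP-I library 2. The interaction was -0.30 (adjusted p 0.328). Of the 1708 exon bases of FADD, 1011 are overlapped by a gene on the opposite strand, whose reads cannot be told apart without strand.

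TRADD (chromosome 16, 67154185 to 67159909, minus strand), the adaptor of TNFRSF1A, read 20.6, 22.1 and 15.9 FPKM in H460 controls and 6.44, 3.12 and 6.92 after ISP-I. Library 2 of ISP-I was the lowest here, and the groups were apart with and without it. The level was 3.56-fold lower (-1.71, SE 0.25, adjusted p 0.000339; -1.46 after median-of-ratios scaling). In A549 it read 9.87, 9.89 and 13.9 FPKM in controls and 7.03, 6.89 and 7.57 after ISP-I, a 1.56-fold fall (-0.57, SE 0.13, adjusted p 0.00528). The fall was deeper in H460 (interaction -1.14, adjusted p 0.00837; -0.87 and 0.041 after median-of-ratios scaling). TRADD has the highest transcript GC content of the 10 genes (64.7%). With the GC trends removed it stayed lower, by -1.33 in H460 (adjusted p 0.000558) and by -0.51 in A549 (0.00137). The lines, which differed in TRADD before treatment, were not told apart after ISP-I (log2 difference -0.39, 95% confidence interval -0.87 to 0.09, adjusted p 0.133).

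CFLAR, the gene of c-FLIP, was the 1 of 9 genes tested whose interaction passed with a positive sign. It lies on chromosome 2 (201116154 to 201176687, plus strand). Its H460 controls read 1.63, 1.45 and 1.63 FPKM and its ISP-I libraries 3.58, 3.43 and 3.52, from 494 to 1438 reads a library. The level was 2.24-fold higher, with groups tight and far apart (0.81, SE 0.10, adjusted p 0.00011; 1.03 after median-of-ratios scaling). On the log2(FPKM + 1) scale this stays under 2-fold because the level is low. In A549 the controls read 5.18, 4.69 and 4.45 FPKM and the ISP-I libraries 5.36, 5.37 and 5.31. The A549 groups did not overlap, but the difference was small and did not pass (0.14, 95% confidence interval -0.04 to 0.32, adjusted p 0.162). The change in H460 exceeded that in A549 by 0.68 (adjusted p 0.000214). After ISP-I CFLAR was still lower in H460, with a log2 difference of -0.49 (adjusted p 7.77e-05) against -1.17 before. It was -0.20 (adjusted p 0.0298) after median-of-ratios scaling and did not pass with quantile normalization (-0.14, 0.116).

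After ISP-I the order of the mRNAs by FPKM had changed. The places hold for the listed lengths, of which that of TNFRSF1A (4005 bases) exceeds its MANE Select transcript (2171) and that of FADD does not. The order was not recomputed with MANE Select lengths. In H460 TNFRSF1A went from the top of the order to place 4, at 12.8 ± 1.45 FPKM, behind TNFRSF10B, TNFRSF10A (20.2 ± 1.80) and FADD (17.1 ± 4.70). FADD overlapped with both TNFRSF10A and TNFRSF1A there, and TRADD (5.49 ± 2.07) overlapped with TNFRSF10D (4.02 ± 0.218) and CFLAR (3.51 ± 0.0739). In A549 TNFRSF1A took the second place, at 44.01 ± 1.15 FPKM, followed by FADD (36.5 ± 1.89). TNFRSF10A and TNFRSF10D (19.5 ± 1.65) overlapped, as did FAS (5.70 ± 0.447) and CFLAR (5.34 ± 0.0338). Between the treated lines 7 of 9 genes were lower in H460, where 71.0% of all genes passed in either direction, and TNFRSF10A and TRADD did not pass. The 7 include TNFRSF10C, which was tested only through its level in A549, so that only a lower level in H460 could be called. Of all 13953 genes tested, 6402 were lower and 3500 higher in treated H460. After median-of-ratios scaling 4767 were lower and 4943 higher, of 13975.

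Proportions within a library do not depend on the scaling between libraries, and they are given without a test. They do depend on the listed lengths, and the percentages of TNFRSF1A were not recomputed with MANE Select lengths. TNFRSF1A made up 61.4%, 61.8% and 62.6% of the summed FPKM of the 4 signalling receptors (TNFRSF1A, FAS, TNFRSF10A and TNFRSF10B) in H460 controls and 17.9%, 15.5% and 17.6% after ISP-I. In A549 it made up 58.9%, 59.9% and 62.7%, then 27.5%, 27.5% and 28.0%. The lines started from overlapping proportions and ended apart. The proportion of the decoys TNFRSF10C and TNFRSF10D among the TRAIL receptors overlapped between control and ISP-I in each line, at 6.59% ± 0.322 and 6.17% ± 0.386 in H460 and 15.6% ± 0.825 and 16.6% ± 0.453 in A549. The ratio of TNFRSF10B to TNFRSF10A overlapped as well, at 2.29 ± 0.0787 and 2.07 ± 0.364 in H460 and 4.35 ± 0.450 and 4.41 ± 0.199 in A549. The lines differed in both proportions without overlap, in controls and after ISP-I.

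The ratio of FADD to TRADD went from 0.662 ± 0.0588 to 3.25 ± 0.579 in H460 and from 2.09 ± 0.417 to 5.09 ± 0.0303 in A549, with no overlap. The ratio of CFLAR to FADD moved in opposite directions. It was 0.108, 0.105 and 0.162 in H460 controls and 0.202, 0.283 and 0.164 after ISP-I, where library 3 lay just above the highest control. In A549 it was 0.231, 0.200 and 0.199, then 0.149, 0.154 and 0.138. CFLAR to CASP8, the gene of caspase-8, went from 0.136 ± 0.00978 to 0.441 ± 0.0338 in H460 and from 0.824 ± 0.0547 to 1.07 ± 0.0581 in A549. CASP8 itself fell in H460, from 11.5 ± 0.296 to 7.98 ± 0.517 FPKM (-0.48, adjusted p 0.00324), a fall that did not pass after median-of-ratios scaling (-0.23, 0.0915). In A549 it did not pass (5.82 ± 0.608 and 5.03 ± 0.252; -0.17, 0.128). With MANE Select lengths in place of the listed ones, the CFLAR to FADD means were 0.193 and 0.333 in H460 and 0.323 and 0.226 in A549, and the CFLAR to CASP8 means 0.0768 and 0.249, and 0.465 and 0.602.

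**Figure D3:**
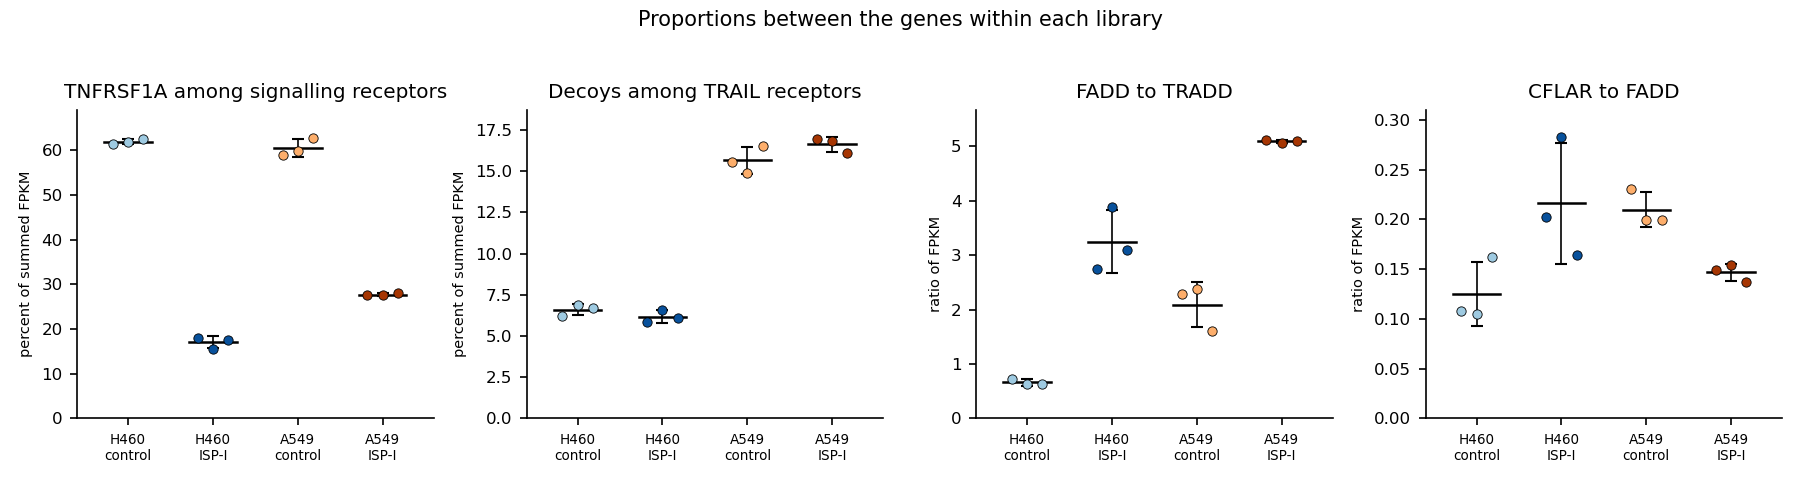
Proportions between the genes within each of the 12 libraries (y axes from 0, percent of summed FPKM or ratio of FPKM) by group (x axis), with means and SD of 3 libraries. TNFRSF1A goes from 62.0% to 17.0% of the signalling receptors in H460 and from 60.5% to 27.7% in A549, while the decoy proportion overlaps between control and ISP-I in each line.

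Around these genes, 47 other genes of death receptor signalling were counted: further ligands and receptors, caspases, ubiquitin ligases and deubiquitinases, kinases and modulators. In H460, 43 were tested, of which 17 rose, against 27.6% of all genes, 14 fell, against 41.5%, and 12 did not pass. After median-of-ratios scaling 20 rose and 10 fell there. Both counts of rises include LTA, FASLG and TNF, which averaged 0.1 FPKM or more only through the ISP-I libraries. In A549, 40 were tested, of which 19 rose, against 30.5% of all genes, 4 fell, against 27.0%, and 17 did not pass. Their median log2 change was 0.02 in H460 and 0.24 in A549. By role, 7 of 13 TRAFs, ubiquitin ligases and deubiquitinases rose and 4 fell in H460, and 9 of 13 rose and 0 fell in A549. Of the initiator caspases CASP8 and CASP10 and the substrate BID, 3 of 3 fell in H460, where 41.5% of all genes fell, and 2 of 3 in A549, where 27.0% did. The fall of CASP8 in H460 did not pass after median-of-ratios scaling, which leaves 2 of 3.

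On the log2(FPKM + 1) scale the 4 largest rises were those of the same genes in both lines, and after median-of-ratios scaling they were larger still in H460 (TRAF1 4.68, TNFAIP3 3.95, BIRC3 3.45 and PEA15 3.09). TRAF1, a TNF receptor-associated factor, went from 0.661 ± 0.106 to 34.8 ± 4.09 FPKM in H460 (4.43, adjusted p 1.08e-07) and from 3.04 ± 0.249 to 28.1 ± 0.701 in A549 (2.85, 1.63e-07). TNFAIP3, the ubiquitin-editing enzyme A20 that restrains TNF receptor signalling, went from 20.5 ± 1.63 to 273.5 ± 38.5 FPKM in H460 (3.67, adjusted p 3.95e-07) and from 1.94 ± 0.199 to 18.2 ± 0.787 in A549 (2.71, 3.59e-07). BIRC3, the ubiquitin ligase cIAP2, rose by 3.22 (adjusted p 6.04e-06) in H460 and 1.59 (0.000571) in A549. PEA15, a death effector domain protein that binds FADD and caspase-8, went from 63.2 ± 4.15 to 448.6 ± 44.4 FPKM in H460 (2.80, adjusted p 1.09e-06) and from 43.4 ± 5.67 to 170.4 ± 1.64 in A549 (1.95, 1.99e-06). Each of these rises was larger in H460, with interactions of 1.58 for TRAF1 (adjusted p 1.64e-06), 0.95 for TNFAIP3 (0.000243), 1.63 for BIRC3 (0.00285) and 0.85 for PEA15 (0.000668).

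On the same scale, falls over 2-fold numbered 4 in H460 and 0 in A549. As ratios of mean FPKM more genes fell over 2-fold, among them CASP10 (3.89-fold) in H460 and TNFSF15, a low ligand gene, in A549 (6.49-fold). After median-of-ratios scaling the H460 falls were -1.68 for RBCK1, -1.61 for TNFRSF11B, -1.39 for TAB1 and -0.82 for BID, the last under 2-fold. RBCK1 (HOIL-1), a subunit of the linear ubiquitin chain assembly complex, went from 30.0 ± 1.49 to 7.16 ± 1.26 FPKM in H460 (-1.93, adjusted p 4.79e-06). TNFRSF11B, the soluble decoy osteoprotegerin, which can bind TRAIL, went from 4.61 ± 0.665 to 0.671 ± 0.163 (-1.75, 6.26e-06). TAB1, a partner of the kinase TAK1, fell by 1.61 on the log2 scale (adjusted p 9.41e-06). RBCK1 and TAB1 changed differently in the lines (interaction -2.39, adjusted p 1.83e-07, and -1.73, 2.23e-06). BID, the caspase-8 substrate that links to mitochondria, went from 9.25 ± 0.886 to 3.96 ± 0.703 FPKM (-1.05, 0.000184). BID also fell in A549, from 12.7 ± 1.45 to 6.78 ± 0.331 (-0.81, 0.000139), and the falls of the lines were not told apart (interaction -0.24, adjusted p 0.233).

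**Figure D4:**
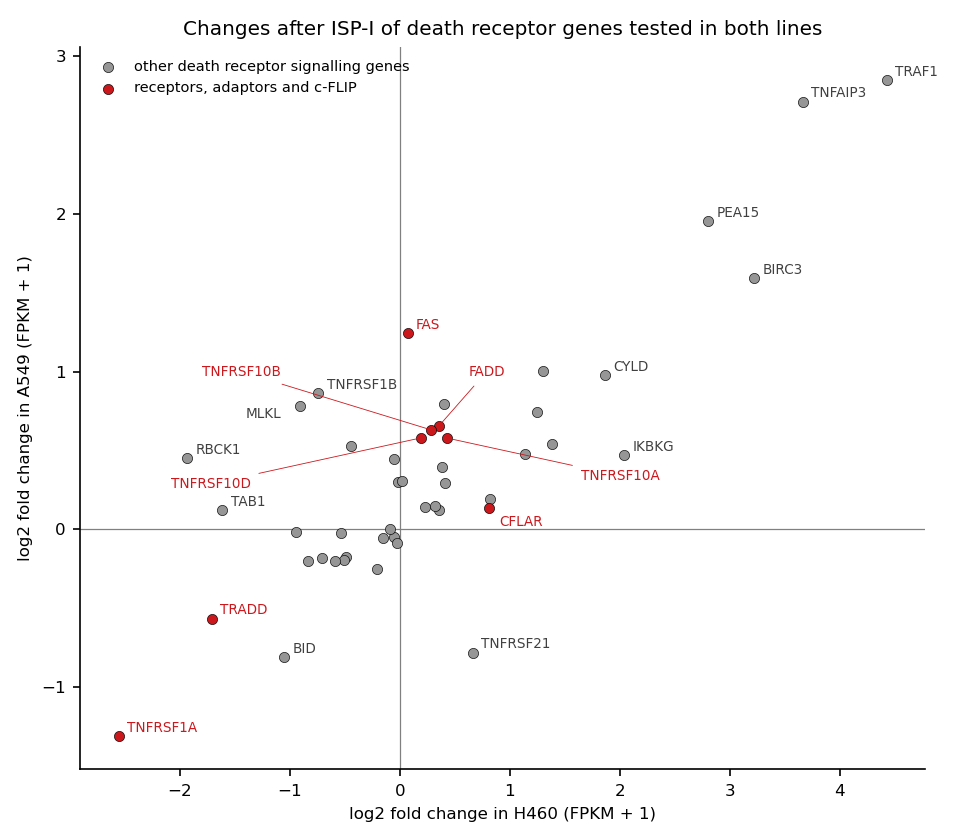
Log2 fold change of FPKM + 1 after ISP-I in H460 (x axis) and A549 (y axis) for the 8 genes described here (red) and 39 other death receptor signalling genes (grey) tested in both lines, each point a gene. TRAF1, TNFAIP3, PEA15 and BIRC3 lie far to the upper right, TNFRSF1A and TRADD to the lower left, and FAS close to 0 on the H460 axis (0.07) and at 1.25 on the A549 axis.

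Of 12 transcription factor genes listed for their known links to death receptor genes, 8 rose and 1 fell in H460, where 27.6% of all genes rose and 41.5% fell, and 6 rose and 2 fell in A549, where 30.5% rose and 27.0% fell. After median-of-ratios scaling 10 rose and 1 fell in H460. DDIT3 (CHOP), a stress-induced factor known to drive TNFRSF10B, went from 1.58 ± 0.424 to 29.3 ± 17.9 FPKM in H460 (3.42, adjusted p 3.69e-05; 3.68 after median-of-ratios scaling) and from 0.737 ± 0.107 to 13.0 ± 0.624 in A549 (3.01, 2.07e-07). FOXO3, known for its link to FAS ligand and TRAIL, went from 1.84 ± 0.199 to 21.6 ± 4.25 in H460 (2.98, 1.27e-06; 3.23 after that scaling) and from 3.46 ± 0.359 to 9.30 ± 0.493 in A549 (1.21, 1.34e-05). ATF4 rose in both lines, by 1.11 (2.03e-05) in A549 and by 0.94 (0.00961) in H460, where it reached 1.23 after that scaling. FOXO1 (1.21, 8.81e-05), NFKB1 (1.58, 6.71e-06) and MYC (1.26, 0.000594) rose over 2-fold in H460, and by 1.46, 1.85 and 1.54 after that scaling. These are values of mRNA side by side with those of the receptors, and no link between them was tested.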

How the data were processed

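The deposited values were FPKM. Per the submitters' processing notes and the study's methods, the authors used FastQC on the paired-end reads, HISAT2 for mapping (hg38) and HTSeq (0.9.1) for the counts per gene that FPKM scale by length and depth. The annotation and strand setting are not given in the sources used here. In the table, 4 lines that were pieces of another line were left out. The columns name line and treatment but no replicate of the labels, so libraries are numbered by their place in a group.

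FPKM times length gave whole reads (within 0.01) for 100% of values. In each line log2(FPKM + 1) of genes averaging 0.1 FPKM or more was compared by limma (3.58.1, R 4.3.3, trended variance, two-sided), with Benjamini-Hochberg adjustment over all genes tested, and a gene was said to rise or fall at an adjusted p under 0.05. The lines were compared in a fit of all 12 libraries. With this pseudocount, changes of genes near 1 FPKM are drawn toward 0. The fits were tested on simulated counts with a single fixed dispersion. These held no GC trends and no shift in scaling between groups, so the fits were not tested under those conditions. Counting intervals are exact (95%), and the limit for a count of 0 is 3 reads. Tables were handled with Python 3.11.15, pandas 2.3.3 and scipy 1.17.1. Transcript lengths, GC content and overlaps came from GENCODE 44.

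The alternatives were another pseudocount (0.1), a filter at 1 FPKM or none, median-of-ratios scaling, quantile normalization, limma voom on recovered reads (at least 10 reads in 3 libraries) with either scaling, a fold change over 2, an adjusted p under 0.01, a single fit of 12 libraries, each library left out and, chosen after the data were seen, removal of GC trends (lowess, span 0.3). The 10 genes, the lists and the rule for naming others (in each line the 4 largest rises and falls over 2-fold of the 47 genes, all such transcription factors, and CASP8) were chosen with earlier results of these data known. The ratios of TNFRSF1A to the signalling receptors and of FADD to TRADD were added after the values were seen.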

Additional observations from a re-analysis of the deposited data

Results flagged for a closer look

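The change after ISP-I differed between the lines for 7 of the 9 genes tested, by the interaction of line and treatment (H460 change minus A549 change on the log2 scale, limma with Benjamini-Hochberg adjustment). The difference was -1.17 for FAS, which rose in A549 and did not pass in H460 (adjusted p 9.44e-05). It was -1.24 for TNFRSF1A (adjusted p 1.37e-05) and -1.14 for TRADD (0.00837), both of which fell in each line and fell further in H460. TNFRSF10C differed by -1.25 (2.87e-05), with 3 reads in all in H460, and was tested only through its level in A549. TNFRSF10B differed by -0.34 (0.0303) and TNFRSF10D by -0.39 (0.0238), and neither passed after median-of-ratios scaling (0.852 and 0.476). CFLAR differed by 0.68 (0.000214), the positive difference among the 7. Of all genes, 53.3% passed the same test. Among the 13953 genes tested, 4841 passed with a negative sign and 2596 with a positive sign. After median-of-ratios scaling 3291 were negative and 3805 positive, of 13975.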

How the results depend on the processing

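No paired analysis was possible because the columns of the table carry no replicate numbers of the labels. Single genes were followed under every alternative but the 2 stricter thresholds (fold change over 2, adjusted p under 0.01), which were applied to the counts only. Of the values of single genes, 135 of 135 in A549 and 125 of 125 between the untreated lines kept their direction and their side of the threshold. In H460, 102 of 119 did, and 15 came to pass, those of TNFRSF10B, TNFRSF10D and FADD. The change of FAS there was -0.038 with GC trends removed and -0.064 without ISP-I library 2. For the difference between the lines, 154 of 179 did, 20 no longer passed, and TNFRSF10A turned positive after median-of-ratios scaling (0.16), voom with that scaling (0.16) and removal of GC trends (0.093), as did FADD after the first 2 (0.00174 and 0.0149). Between the treated lines TNFRSF10A turned positive with the same 3 settings (0.35, 0.36 and 0.21), with quantile normalization (0.041) and without A549 ISP-I library 1 (0.00164), A549 ISP-I library 2 (0.00688) or H460 ISP-I library 3 (0.058), without which TRADD passed (-0.56, adjusted p 0.038). Leaving out 1 library at a time, the TNFRSF10A difference ranged from -0.065 to 0.058. CFLAR no longer passed there with quantile normalization (-0.14, adjusted p 0.116). The cause was not tested.

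The number of rising genes in H460 was 5 with median-of-ratios scaling, voom with it, or GC trends removed, 4 with quantile normalization and 0 over 2-fold, against 2. Over 2-fold, A549 kept 2 rises and 1 fall, the interaction 0 positive differences, and untreated H460 0 higher and 2 lower. Voom with median-of-ratios left 3 negative interactions of 6. An adjusted p under 0.01 left 0 higher in untreated H460, and 1 was higher in treated H460 with median-of-ratios scaling, voom with it, or GC trends removed, against 0. Leaving out each library gave 2 to 3 rises in H460, 4 to 6 negative interactions and 7 to 8 lower in treated H460. At this depth TNFSF10, and TNFRSF10C in H460, were too low to show a change.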

Other observations

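Of the 47 other genes of death receptor signalling, 5 passed in both lines in opposite directions, and none of the 10 genes described above did. These genes were chosen after their values were seen. TNFRSF1B, TNF receptor 2, which has no death domain, fell in H460 from 1.31 ± 0.0745 to 0.386 ± 0.101 FPKM (-0.74, adjusted p 7.9e-05) and rose in A549 from 0.231 ± 0.0604 to 1.25 ± 0.199 (0.87, 5.4e-05). MLKL, the executor of necroptosis, fell from 10.0 ± 0.253 to 4.88 ± 0.151 in H460 (-0.91, 7.02e-05) and rose from 9.83 ± 0.593 to 17.6 ± 0.481 in A549 (0.78, 4.19e-05). RIPK3, another necroptosis gene on the list, had 0 reads in every library of both lines. RBCK1 fell in H460 and rose in A549 (0.45, 0.00126). TNFRSF21 (DR6), another receptor with a death domain, rose in H460 from 3.44 ± 0.388 to 6.09 ± 1.07 (0.67, 0.0032) and fell in A549 from 43.7 ± 2.41 to 25.0 ± 1.08 (-0.78, 4.08e-05). TRAF5 fell in H460 (-0.44, 0.0187) and rose in A549 (0.53, 0.00135), and its fall did not pass after median-of-ratios scaling (-0.26, 0.13). TNFRSF1B, MLKL, RBCK1 and TNFRSF21 kept both calls after that scaling.

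Of the 4 other ligands on the list, 3 were near the floor in untreated H460. They averaged 0.1 FPKM or more there only through the ISP-I libraries, so that only a rise could be called. LTA, lymphotoxin alpha, which binds the TNF receptors, had 2 reads in the 3 H460 controls and 73 in the 3 ISP-I libraries. FASLG had 1 and 20 reads, and TNF 0 and 33, the latter spread from 2 to 23 reads a library. In A549 these 3 genes had 0 reads in controls and 5, 4 and 1 after ISP-I and were not tested. The fitted changes of genes at such counts depend on the pseudocount, and those of these 3 genes in H460 are not given. The remaining ligand, TNFSF15 (TL1A), had 1 read in H460 controls and 25 after ISP-I, with groups that overlapped, and was not tested there. In A549 it fell from 0.727 ± 0.149 to 0.112 ± 0.0221 FPKM (-0.63, adjusted p 0.000182).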
